A study of Homo sapiens with 12 samples.

Results

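The genes described here are the well-counted long intergenic noncoding RNAs (lincRNAs) of THP-1 macrophages. They are the rows of the deposited count table whose biotype is lincRNA and whose raw counts sum to at least 1000 over 12 libraries. The rule was met by 100 genes of 7629 lincRNA rows and 58907 rows in all. The genes were thus chosen by their summed counts, and the levels below are a description. Because the sum runs over all groups, a gene can pass through the state in which it is high: of 1924 counts of AC239798.2, only 156 came from the 6 M2 libraries. Of the 100, 79 held at least 500 counts in the M1 libraries and as many in the M2 libraries, and 21 did not. Counts of calls over all 100, and gaps between M1 and M2 in these 21, are thus not independent of the choice. All 100 passed the filter on low counts that left 15252 genes for testing, 580 of them lincRNAs. Just inside the rule lay AC048341.1 with 1010 counts and TRAM2-AS1 and AC106782.2 with 1007 each, and just outside it LINC01388 with 996, AC073335.2 with 976 and AL390066.1 with 969.

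A lincRNA is a long transcript with no protein-coding frame that is annotated apart from protein-coding genes. Such RNAs act in varied ways: some build nuclear bodies, some hold proteins or microRNAs away from their targets, and many are precursors whose processing releases microRNAs or small nucleolar RNAs (snoRNAs, guides for the modification of ribosomal RNA). In macrophages, inflammatory stimuli are known to change the levels of many lincRNAs, and some of these act on the expression of immune genes, whereas most have no known role.

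The cells were PPRE-eGEP-THP-1, engineered from THP-1, a line that came from a human monocytic leukaemia. All 12 libraries shared the same differentiation, 48 h with phorbol 12-myristate 13-acetate at 25 ng/mL and 24 h of rest. The groups were M1 cells given MCHP, M1 cells given DMSO, M2 cells given MCHP and M2 cells given DMSO, each of 3 libraries described as biological replicates, with nothing said of separate cultures, so p-values measure the spread between these samples. M1 polarization used lipopolysaccharide (100 ng/mL) with interferon gamma (20 ng/mL), and M2 polarization used interleukin 4 with interleukin 13 (20 ng/mL each), for 24 h in both cases. MCHP, monocyclohexyl phthalate, is a monoester of a phthalate plasticizer and was given at 100 µM during polarization, with DMSO as the solvent control. The cells are of leukaemic origin, whether the line is a clone is not given in the sources used here, and RNA was selected with poly-T beads, which favours transcripts with a poly(A) tail.

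Position and exon length of all 100 lincRNAs matched GENCODE release 29 on hg38. Of these, 43 carry a clone name, 25 carry a LINC number and 32 another name. They lie on 22 chromosomes, 12 on chromosome 7 and 5 on X. Exon length had a median of 2946 bases, from 323 for LINC02244 to 28487 for FTX. For 25, the exons of all annotated transcripts merge into 1 block. A protein-coding gene body overlaps 22 of them, another 24 lie within 5000 bases of one, and 54 lie farther away. The start of 17 lies within 1000 bases of a protein-coding start on the opposite strand. Exon bases are shared with another gene for 35, and for 16 the shared portion exceeds 10%. No strand setting is given for the counting, so reads of such overlapping genes cannot be told apart.

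A few of the 100, LINC00599 among them, were left out of the search for mature microRNAs of the RefSeq table. Among those searched, 9 hold such microRNAs on the same strand. The mature sequences from RefSeq (GRCh38.p14) are shown for the hosts that the results turn on, 5′ to 3′, because several share a seed, the part that pairs with target messages. Capitals mark the seed, bases 2 to 8.
miR-29c-3p (MIR29B2CHG): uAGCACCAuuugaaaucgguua
miR-29b-3p (MIR29B2CHG): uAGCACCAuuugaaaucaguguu
miR-221-3p (MIR222HG): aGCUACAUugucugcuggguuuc
miR-222-3p (MIR222HG): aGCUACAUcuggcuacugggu
miR-34a-5p (MIR34AHG): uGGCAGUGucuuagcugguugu
miR-22-3p (MIR22HG): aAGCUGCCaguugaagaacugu
miR-4435 (MIR4435-2HG): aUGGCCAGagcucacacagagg
let-7i-5p (AC048341.1): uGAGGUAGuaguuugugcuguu
The 2 microRNAs of MIR29B2CHG share the seed AGCACCA, and those of MIR222HG share GCUACAU. CYTOR holds a second locus of miR-4435, with the mature sequence shown for MIR4435-2HG. FTX and MUC20-OT1 are the other hosts found in that search. GENCODE also places MIR612 in NEAT1, and it places MIR124-1 in LINC00599, which was not searched. Poly(A) libraries measure the host transcript and not the mature microRNA, so no level of a microRNA is given here.

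RefSeq promoters, 250 bases before to 50 after the start, were at hand for 40 of the 100. Sites searched on both strands included the STAT6 site TTCNNNNGAA, which reads the same on both strands, the interferon-stimulated response element GAAANNGAAA, the NF-kB site GGGNNTTTCC, the PPAR:RXR direct repeat AGGTCANAGGTCA and the TATA box TATAAA. STAT6 carries the interleukin 4 signal, and the response element is known from promoters that interferons activate. The response element occurred in 4 of 40, or 10.0%, against 3.57% of 35116 promoters in the table. The RefSeq start lay within 1000 bases of the start of the counted gene model for 33 of the 40 and farther for 7. These 4 promoters are shown because their genes were called between M1 and M2 in both treatments, PSMB8-AS1 higher in M1 and HCG11, MIR222HG and MIR34AHG lower. Capitals mark the response element, on the printed strand in PSMB8-AS1 and on the opposite strand in the other 3.
PSMB8-AS1 (chr6:32843836-32844135, plus strand): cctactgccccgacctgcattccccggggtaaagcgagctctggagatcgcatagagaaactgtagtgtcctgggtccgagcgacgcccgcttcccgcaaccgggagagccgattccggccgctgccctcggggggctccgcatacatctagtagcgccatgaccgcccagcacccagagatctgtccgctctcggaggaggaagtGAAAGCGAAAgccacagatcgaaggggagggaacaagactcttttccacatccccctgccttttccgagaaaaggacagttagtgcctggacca
HCG11 (chr6:26521456-26521755, plus strand): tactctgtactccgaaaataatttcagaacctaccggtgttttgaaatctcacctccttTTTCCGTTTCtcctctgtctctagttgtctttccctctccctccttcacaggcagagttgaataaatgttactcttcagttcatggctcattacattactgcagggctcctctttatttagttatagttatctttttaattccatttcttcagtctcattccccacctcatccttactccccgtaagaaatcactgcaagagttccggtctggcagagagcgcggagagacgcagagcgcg
MIR222HG (chrX:45770218-45770517, minus strand): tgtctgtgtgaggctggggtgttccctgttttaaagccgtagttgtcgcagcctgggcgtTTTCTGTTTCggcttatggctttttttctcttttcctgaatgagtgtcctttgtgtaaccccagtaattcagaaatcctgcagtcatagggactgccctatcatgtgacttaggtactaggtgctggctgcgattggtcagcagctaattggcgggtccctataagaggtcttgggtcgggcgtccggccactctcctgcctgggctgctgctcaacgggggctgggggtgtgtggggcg
MIR34AHG (chr1:9182289-9182588, minus strand): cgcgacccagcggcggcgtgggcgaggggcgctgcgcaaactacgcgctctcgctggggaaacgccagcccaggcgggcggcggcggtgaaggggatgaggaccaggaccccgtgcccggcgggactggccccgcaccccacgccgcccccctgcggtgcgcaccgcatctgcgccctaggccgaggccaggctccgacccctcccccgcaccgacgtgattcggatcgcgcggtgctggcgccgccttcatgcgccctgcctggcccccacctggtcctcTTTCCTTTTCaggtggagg
The RefSeq start of PSMB8-AS1 is that of the counted model, those of HCG11 and MIR222HG are 3 and 7 bases from it, and that of MIR34AHG lies 16568 bases inside the counted model. None of these 4 windows held another of the sites named above. Over all 40 lincRNAs with a promoter, 10 were called higher in M1, 14 lower and 16 not in DMSO, where 42.5% of all genes tested were called.

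Of the other sites, the STAT6 site occurred in 4 of 40 (6.44% of all promoters), namely LINC00662, EPB41L4A-AS1, BAIAP2-DT and IQCH-AS1. IQCH-AS1 was called lower in M1 and the other 3 were not called, although BAIAP2-DT was called lower, at -0.28, without M2 DMSO replicate 1. The NF-kB site occurred in IQCH-AS1 alone (1.91% of all), the TATA box in 4 of 40 (11.5% of all), and the PPAR:RXR repeat in none (0.0228% of all). A match describes the letters of a window and shows no binding. In the CYTOR and MIR4435-2HG windows, 241 of 241 aligned bases were identical at an offset of 59 bases. The RefSeq starts lie 646 bases inside the counted model of CYTOR and 28215 bases inside that of MIR4435-2HG. These genes are near-identical copies, so their counts may share reads.

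A few genes held a large part of the counts. NORAD, a cytoplasmic RNA that binds Pumilio proteins, MALAT1, an RNA of nuclear speckles, and NEAT1, the scaffold of paraspeckles, held 238141 of 523155 counts, or 45.5%. The 100 lincRNAs held 76.3% of all lincRNA counts. Only 6 of them exceeded 10000 counts, 41 lay between 2000 and 10000 and 53 below 2000. Per length, in TPM (the count per base of exon, scaled to the same total in each library) averaged over all libraries, the highest was LINC02244 with 850, followed by NORAD with 513, AC245128.3 with 238, SNHG8 with 193 and MALAT1 with 174, while NEAT1, with its long model, had 30.5.

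**Figure D1:**
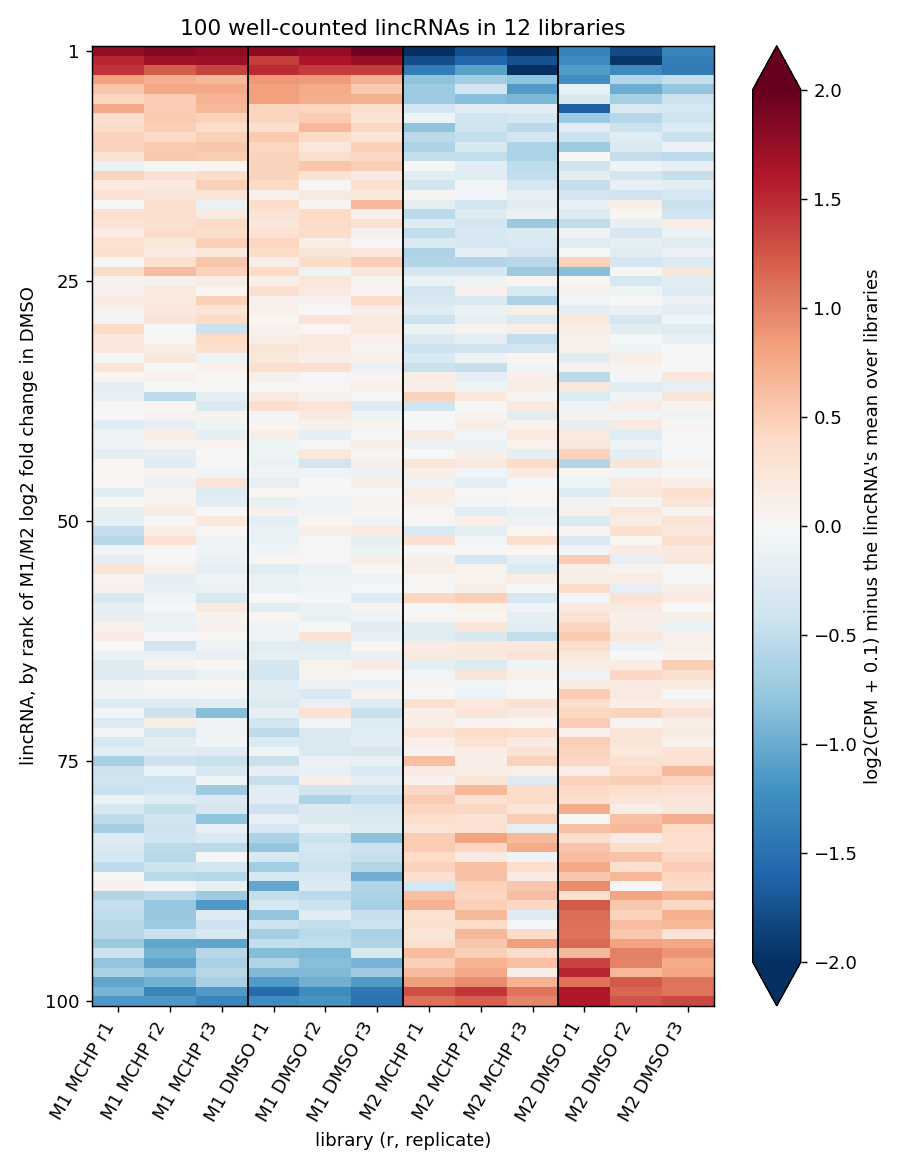
Each row is 1 of the 100 lincRNAs and each column 1 of 12 libraries. Colour gives log2(CPM + 0.1) minus the gene's mean over libraries, cut at -2 and 2, and rows run from the highest to the lowest log2 fold change of M1 over M2 in DMSO. The M1 columns differ from the M2 columns at the top and bottom, and M2 DMSO replicate 1 is darker than its group at the bottom.

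Depth was 14352202 to 16871233 counts per library, and no libraries were identical. The summed level of 10 macrophage markers was 3310 to 3820 CPM (counts scaled to the library total, with TMM factors), although CD68 and MSR1 held only 36 and 30 counts over all libraries. The summed level of 4 T cell markers was at most 0.135 CPM, that of 3 epithelial markers at most 0.189 CPM, with EPCAM and CD2 at 0, and that of 3 B cell markers 1.18 to 1.59 CPM, with MS4A1 at 0. The 6 M1 markers summed to 1280 CPM in M1 DMSO and 0.676 CPM in M2 DMSO, and the 6 M2 markers to 2180 CPM in M1 DMSO and 10300 CPM in M2 DMSO, although CCL17 and MRC1 held only 12 and 2 counts. The 4 fibroblast markers, with DCN at 0, summed to 122 CPM in M1 DMSO and 43.3 CPM in M2 DMSO, and their part in the results was not tested. M2 DMSO replicate 1 stood apart: its log2 deviations from the other libraries of its group had an SD of 0.394 over the 100 lincRNAs, against 0.185 to 0.252 in the other 11 libraries. The 100 lincRNAs took 0.361% of its counts, against 0.293% and 0.299% in the other 2 M2 DMSO libraries. The number of the 100 called in contrasts that involve this group is therefore also given without that library. So are the values of named genes that gained a call, lost it or leaned on that library. Counts over subsets, gene lists, gene pairs and groups that did not overlap are given with all libraries only.

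Between libraries of a group, the 100 lincRNAs varied about as much as the typical gene. The median within-group SD of log2 CPM was 0.175 for them, 0.402 for the 480 other tested lincRNAs and 0.162 for all genes tested. MUC20-OT1 (0.049), CYTOR (0.0679), NORAD (0.0685) and HCG11 (0.0756) were among the steadiest, and AC024909.1 (0.394) and AC092368.3 (0.384) among the most variable. The first principal component of the 100, which separated M1 from M2, held 86.1% of their variance.

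Many of these lincRNAs differed between M1 and M2 in DMSO. A small set that includes MIR29B2CHG, AC239798.2 and FAM225A was several-fold higher in M1 than in M2, and SNHG4, AC078850.1, LINC01160 and MIR222HG were several-fold lower in M1 than in M2. Of the 100, 23 were called higher in M1 and 33 lower (edgeR quasi-likelihood test, adjusted p under 0.05), together 56, where 42.5% of all genes tested were called. Among the 79 with 500 counts in each state, 40 were called, 18 higher and 22 lower, and among the other 21, 16 were called, 5 higher and 11 lower. The share was 46.1% among protein-coding genes and 27.7% among the 480 other tested lincRNAs, which by the rule have fewer counts and varied more within groups (median SD 0.402 against 0.175). Without M2 DMSO replicate 1, 61 of the 100 were called, 26 higher and 35 lower, against 46.2% of all genes. Of the 56, AC005261.1, HRAT92 and AC060780.1 were then not called, and 8 others were. A change of at least 2-fold was found for 22 of the called lincRNAs, and for 1937 of the 6489 genes called over all 15252 tested. The median log2 fold change of the 100 was -0.13, against 0 for all genes. The groups did not overlap for 61 of the 100, 25 higher and 36 lower, against 49.5% of all genes. Scaled by library size alone, which moved the median of all genes by -0.13, the calls were 17 higher and 45 lower. In bulk RNA, a lower level in each cell and fewer cells that hold the RNA cannot be told apart.

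AC239798.2, a clone-named lincRNA on chromosome 1 (143877731 to 143885076, minus strand), had 19.4, 18.9 and 21.7 CPM in M1 DMSO, against 2.14, 1.53 and 2.17 CPM in M2 DMSO. Every M1 library lay above every M2 library, with a log2 fold change of 3.36 ± 0.15 (SE; adjusted p = 2.2e-12), or 10.3-fold. MIR29B2CHG, the host of miR-29b-2 and miR-29c (chromosome 1, 207801518 to 207879096, minus strand), had 16.3, 19.3 and 21.0 CPM in M1 DMSO, against 2.52, 1.53 and 2.34 CPM in M2 DMSO. It too was apart in all libraries, at 3.15 ± 0.16 (adjusted p = 1.1e-11), or 8.87-fold. FAM225A (chromosome 9, 113113073 to 113119928, plus strand) had 18.3, 17.1 and 16.9 CPM in M1 DMSO, against 2.90, 2.59 and 2.34 CPM in M2 DMSO, a difference of 2.74 ± 0.17 (adjusted p = 1.1e-10). The gap between the groups exceeded the spread within either of them for each of these 3 genes. All 3 met the count rule through the M1 libraries, so this gap is not independent of the choice. AC239798.2 held 1768 counts in M1 and 156 in M2, MIR29B2CHG 1723 and 195, and FAM225A 1516 and 242. AC239798.2, like LINC00623 and LINC00342 below, lies in a duplicated part of the genome, so its reads may be split among copies.

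Next in size among those higher in M1 were LINC00623 (log2 fold change 1.53 ± 0.13), PSMB8-AS1 (1.32 ± 0.21), LINC01094 (1.23 ± 0.13), AC092368.3 (1.05 ± 0.21), AC079949.1 (0.97 ± 0.13), SNHG15 (0.79 ± 0.11) and MIR4435-2HG (0.77 ± 0.10). Of these, PSMB8-AS1 held 767 counts in M1 and 324 in M2, and LINC01094 held 1062 and 471. Their gaps are thus not independent of the count rule. PSMB8-AS1 overlaps, on the opposite strand, immunoproteasome and peptide transporter genes that interferon gamma induces. It had 9.36, 8.83 and 7.63 CPM in M1 DMSO and 4.73, 2.59 and 3.02 CPM in M2 DMSO, but 55.0% of its exon bases lie opposite other genes, among them PSMB8 and TAP1, and 8.92% are shared on its own strand, which PSMB9 also uses. BISPR, named as a regulator of the interferon-induced gene BST2, had 16.8, 15.6 and 16.3 CPM in M1 DMSO and 12.2, 8.77 and 8.49 CPM in M2 DMSO (0.73 ± 0.13), with 19.9% of its exon bases shared on its strand. CYTOR was higher in M1 as well (0.54 ± 0.09). AC092368.3 leaned on M2 DMSO replicate 1, with 3.34 CPM against 8.53 and 8.27 CPM, and its log2 fold change was 0.74 without that library.

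**Figure D2:**
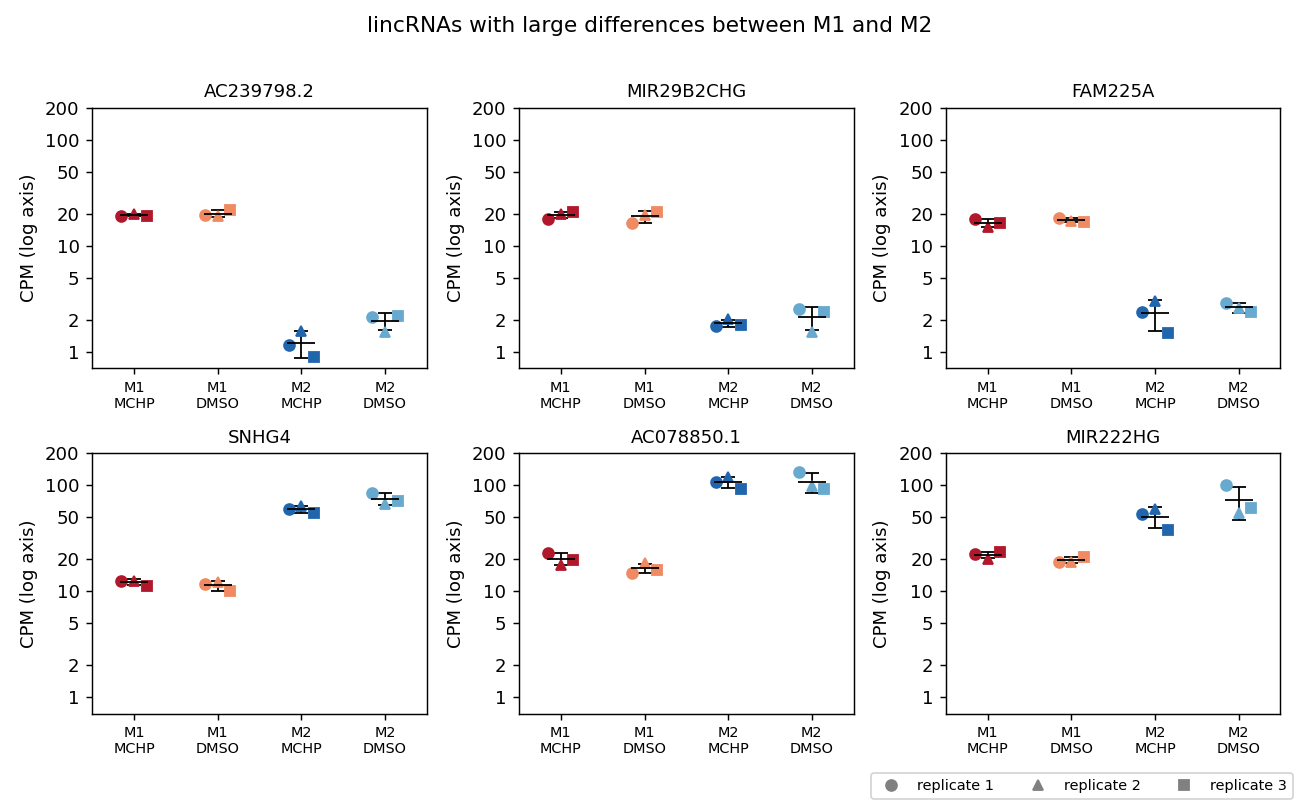
TMM-scaled CPM on a log axis for 6 lincRNAs in the 4 groups, with 1 symbol per replicate, the mean as a horizontal bar and the SD as whiskers (n = 3). The upper row lies at 15 to 21.7 CPM in M1 and at 0.89 to 3.02 CPM in M2, and the lower row is lower in every M1 library than in any M2 library.

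Among the lincRNAs lower in M1, SNHG4, a snoRNA host gene on chromosome 5 (139274102 to 139284899, plus strand), had 11.7, 12.3 and 9.99 CPM in M1 DMSO, against 85.0, 66.8 and 70.8 CPM in M2 DMSO. Its log2 fold change was -2.71 ± 0.11 (adjusted p = 2.5e-13), a ratio of 0.153, and 14% of its exon bases are shared on its strand with MATR3. AC078850.1, a clone-named lincRNA on chromosome 4 (128567972 to 128570531, minus strand), had 15, 18.3 and 16 CPM in M1 DMSO, against 134, 97.4 and 92.6 CPM in M2 DMSO, at -2.71 ± 0.14 (adjusted p = 1.0e-11). Neither gene had overlapping groups. LINC01160, inside the gene body of RAP1A, had 11.4, 12.9 and 11.5 CPM in M1 DMSO and 53.4, 59.3 and 52.9 CPM in M2 DMSO (-2.20 ± 0.11, adjusted p = 4.1e-12). MIR222HG, the host of miR-221 and miR-222 on X (45745211 to 45770274, minus strand), had 18.9, 18.9 and 21.2 CPM in M1 DMSO and 101, 55.3 and 60.5 CPM in M2 DMSO. Its log2 fold change of -1.88 ± 0.19 (adjusted p = 1.8e-07) became -1.56 without M2 DMSO replicate 1, the library at 101 CPM. The next were AL137003.2 (-1.84 ± 0.15), LINC00342 (-1.54 ± 0.18), LINC01010 (-1.44 ± 0.14), AL359237.1 (-1.31 ± 0.19), LINC00599 (-1.27 ± 0.21) and MIR34AHG (-1.27 ± 0.17). Of these, LINC00342 held 310 counts in M1 and 864 in M2, AL359237.1 427 and 1008, and MIR34AHG 342 and 785. Their gaps are thus not independent of the count rule.

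The 5 microRNA hosts of a list of 22 such genes did not share a direction. MIR29B2CHG and MIR4435-2HG were higher in M1 DMSO than in M2 DMSO, and MIR222HG and MIR34AHG, the host of the p53-induced miR-34a, were lower. MIR22HG was not called (log2 fold change -0.25 ± 0.15, adjusted p = 0.20), with 12.3, 13.2 and 11.3 CPM in M1 DMSO and 17.9, 14.2 and 11.9 CPM in M2 DMSO. AC048341.1, which holds let-7i, was lower in M1 DMSO (3.72, 5.66 and 4.52 CPM) than in M2 DMSO (7.12, 7.30 and 7.01 CPM), at -0.62 ± 0.18 (adjusted p = 0.0079). Of all 15 tested genes of the list, including less counted ones and other biotypes, 5 were higher and 3 lower. Of all genes tested, 42.5% were called, 21.6% higher and 20.9% lower.

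Among 5 genes on a list of 36 snoRNA hosts, SNHG15 and CYTOR were higher, SNHG4 was lower, and SNHG8 (-0.23 ± 0.16, adjusted p = 0.25) and EPB41L4A-AS1 were not called. CYTOR is counted here because the list holds it, although it carries a locus of miR-4435 and is not on the microRNA host list. Whether it hosts a snoRNA was not checked. SNHG15 had 26.9, 33.3 and 28.1 CPM in M1 DMSO and 18.0, 15.6 and 17.4 CPM in M2 DMSO. EPB41L4A-AS1 had 20.1, 24.0 and 19.5 CPM in M1 DMSO and 22.2, 20.1 and 19.7 CPM in M2 DMSO, so its groups overlapped. Of 23 tested genes of the list, 5 were higher and 8 lower, where 42.5% of all genes tested were called. Among the lower ones were SNHG14 (-0.90 ± 0.08), SNHG7 (-0.77 ± 0.11) and SNHG3 (-0.77 ± 0.15), annotated with other biotypes. The median log2 fold change of the 23 was -0.23, against 0 for all genes.

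The 3 RNAs of nuclear architecture and genome stability differed little. NORAD had 603, 609 and 633 CPM in M1 DMSO, against 813, 694 and 719 CPM in M2 DMSO, and was lower in M1 by a small margin (-0.27 ± 0.06, adjusted p = 0.0010). MALAT1 had 399, 403 and 423 CPM in M1 DMSO and 460, 334 and 352 CPM in M2 DMSO, and was not called (0.10 ± 0.10, 95% interval -0.10 to 0.30). NEAT1 had 186, 221 and 241 CPM in M1 DMSO and 237, 136 and 140 CPM in M2 DMSO, with overlapping groups (0.34 ± 0.16, adjusted p = 0.11). Without M2 DMSO replicate 1, which held the 237 and 460 CPM, both were called higher in M1, MALAT1 at 0.25 and NEAT1 at 0.64. Of 5 tested genes of the list they belong to, which holds 9, none was higher and NORAD was the only one lower, where 42.5% of all genes tested were called.

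Of the list of 33 lincRNAs tied to inflammation and interferon, 4 are among the 100. LINC01094 was higher in M1, with 13.4, 12.5 and 12.3 CPM in M1 DMSO and 5.99, 4.71 and 5.53 CPM in M2 DMSO. LINC01010 and MIR222HG were lower, and NEAT1 was not called. LINC01010 had 9.65, 9.64 and 8.84 CPM in M1 DMSO and 29.7, 23.7 and 23.3 CPM in M2 DMSO. Of 16 tested genes of the list, 3 were higher and 3 lower, where 42.5% of all genes tested were called. The higher ones outside the 100 were NRIR, a negative regulator of interferon responses (3.68 ± 0.51), and C5orf56 (2.70 ± 0.12), a transcript next to IRF1. The mean of NRIR was 3.42 CPM in M1 DMSO and 0.269 CPM (SD 0.325) in M2 DMSO, so its fold change rests on few counts. Of 7 tested genes of the p53 and stress list, none was higher and 3 were lower: MIR34AHG, PVT1 (-1.70 ± 0.45) and DANCR (-1.24 ± 0.10). The share of 42.5% of all genes applies here too. PVT1 was low in both groups, with means of 0.27 CPM in M1 DMSO and 0.894 CPM in M2 DMSO. On this list 3 of the 100 appear, and its other members NEAT1 and MIR22HG were not called.

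The same contrast in MCHP-treated cells, which shares no library with the one in DMSO, called 61 of the 100, 29 higher in M1 and 32 lower, against 44.6% of all genes. Among the 79 with 500 counts in each state, 44 were called, 23 higher and 21 lower. Among the other 21, 17 were called, 6 higher and 11 lower. The groups did not overlap for 62 of the 100, against 57% of all genes. Of the 100, 21 were called higher in both contrasts, 29 lower in both and none in opposite directions, and 33 were called in neither. The count rule used the libraries of both contrasts, and the share of all genes called in both was not computed. Among the shared calls were AC239798.2, MIR29B2CHG and SNHG4. AC239798.2 had 19.0, 20.1 and 19.2 CPM in M1 MCHP, against 1.16, 1.57 and 0.89 CPM in M2 MCHP (3.98 ± 0.17). MIR29B2CHG had 18.0, 20.0 and 20.7 CPM in M1 MCHP, against 1.74, 2.03 and 1.78 CPM in M2 MCHP (3.39 ± 0.17). SNHG4 had 12.6, 12.6 and 11.3 CPM in M1 MCHP, against 59.8, 64.3 and 55.1 CPM in M2 MCHP (-2.29 ± 0.11). Each of these genes had its groups apart with either treatment. AC239798.2 and MIR29B2CHG met the count rule through the M1 libraries, so their gaps are not independent of the choice.

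Several lincRNAs of moderate level also differed by about 2-fold with MCHP. LINC00265, on chromosome 7, had 11.1, 11.6 and 11.9 CPM in M1 MCHP, against 5.23, 6.38 and 5.14 CPM in M2 MCHP (1.04 ± 0.15, adjusted p = 1.5e-05). BISPR (0.99 ± 0.13), SNHG15 (0.98 ± 0.11) and AC133919.2 (0.95 ± 0.21) were higher in M1 by similar amounts. In the other direction, AC069360.1, on chromosome 11, had 4.70, 3.85 and 2.95 CPM in M1 MCHP, against 10.8, 9.17 and 8.83 CPM in M2 MCHP (-1.32 ± 0.22, adjusted p = 6.1e-05). LINC02019 (-1.18 ± 0.15) and ZNF674-AS1 (-1.02 ± 0.14) followed, and neither had overlapping groups. AC069360.1 held 385 counts in M1 and 1019 in M2, LINC02019 398 and 988, and ZNF674-AS1 419 and 825. The gaps of these genes are thus not independent of the count rule. Of all genes tested, 44.6% were called between M1 and M2 with MCHP. Over the gene lists, the tested genes called were 7 higher and 3 lower of 15 microRNA hosts, and 5 higher and 5 lower of 23 on the snoRNA host list. They were 6 higher and 3 lower of 16 on the inflammation list, 1 higher and 3 lower of 7 on the p53 list, and 2 higher and 2 lower of 5 on the nuclear list.

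Between M1 and M2, 8 were called higher and 3 lower with MCHP and not in DMSO, while 2 were called higher and 4 lower in DMSO and not with MCHP. NEAT1 had 176, 214 and 251 CPM in M1 MCHP, against 114, 114 and 117 CPM in M2 MCHP, and was called higher with MCHP (0.89 ± 0.16, adjusted p = 2.0e-04). AC245128.3 had 53, 49.5 and 56.5 CPM in M1 MCHP, against 33.8, 34.2 and 34.4 CPM in M2 MCHP (0.64 ± 0.08, adjusted p = 2.1e-06), and was at 0.16 ± 0.08 in DMSO. AC125603.2 was called in DMSO (0.72 ± 0.14) and not with MCHP (0.20 ± 0.15). AC024909.1 was likewise called in DMSO (-1.12 ± 0.26) and not with MCHP (-0.31 ± 0.25). MUC20-OT1, the steadiest within groups, had 24.8, 26.6 and 25.7 CPM in M1 DMSO, against 32.6, 32.8 and 32.6 CPM in M2 DMSO (-0.35 ± 0.08, adjusted p = 0.0011), and was at -0.02 ± 0.08 with MCHP. These contrasts share the M2 libraries with the comparison of MCHP and DMSO in M2. Such a pair of results does not show that the contrasts differ, and the test of that difference, which equals the difference of the MCHP responses, called none of the 100.

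**Figure D3:**
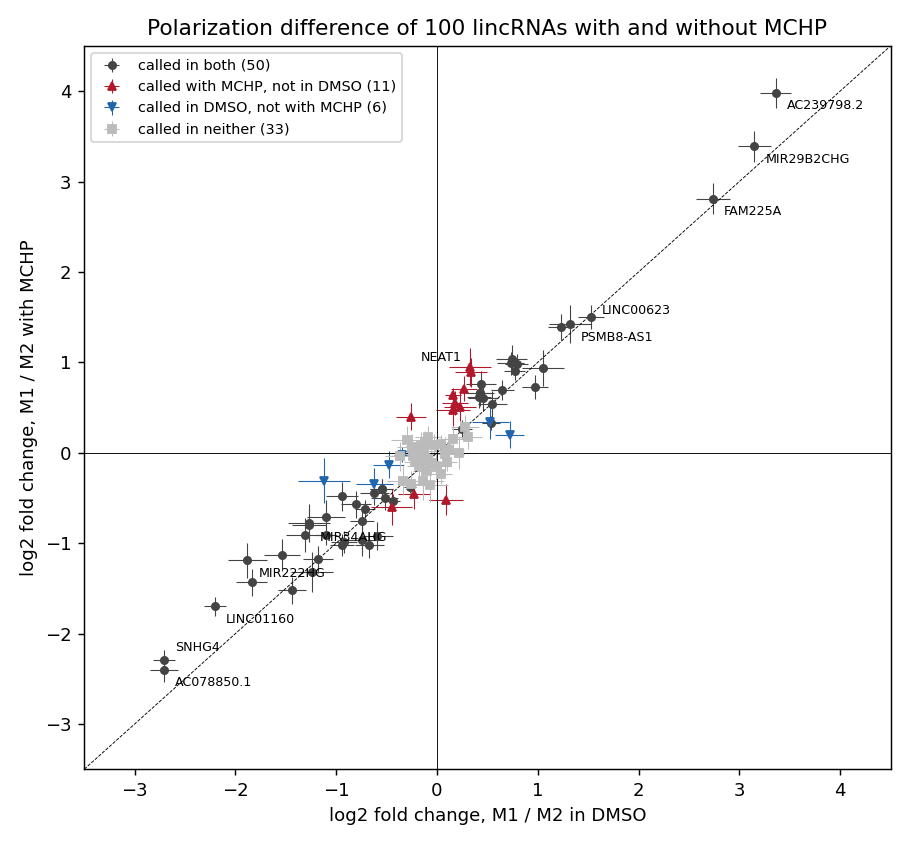
Log2 fold change of M1 over M2 in DMSO (horizontal) and with MCHP (vertical) for the 100 lincRNAs, with SE bars and a dashed line of equality. The 50 called in both lie at the upper right and the lower left, with AC239798.2 at 3.36 and 3.98 and SNHG4 at -2.71 and -2.29.

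In M2 cells, the share of these lincRNAs called between MCHP and DMSO was close to that of all genes. AC245128.3, AL513283.1 and MIR34AHG were called lower and CYTOR higher with MCHP, by less than 2-fold each. These 4 of the 100 compare with 5.11% of all genes called, 2.92% higher and 2.18% lower, and 2 of the 480 other tested lincRNAs were called. MIR34AHG and CYTOR kept their calls under only 8 and 6 of 20 alternatives. An unadjusted p under 0.05 was found for 28 of the 100, and for 2863 of the 15252 genes tested. Values were mostly on the lower side: 27 of the 100 had a positive log2 fold change, and the median was -0.12, against 0 for all genes. The MCHP and DMSO groups did not overlap for 25, of which 3 were higher and 22 lower with MCHP, against 20.8% of all genes, 11.2% higher and 9.53% lower. Scaled by library size alone, which moved the median of all genes by -0.04, none was called higher and 7 lower. The count was 2 without any of the 6 M1 or 3 M2 MCHP libraries in turn. Without M2 DMSO replicate 1, the median was -0.10, and 11 were called, 4 higher and 7 lower, against 11.2% of all genes.

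AC245128.3 is a lincRNA of 1 exon on chromosome 19 (54890673 to 54891420, plus strand). It had 33.8, 34.2 and 34.4 CPM in M2 MCHP, against 48.4, 42.5 and 45.3 CPM in M2 DMSO. All MCHP libraries lay below all DMSO libraries, with a log2 fold change of -0.41 ± 0.08 (adjusted p = 0.0041) that stayed called under all 20 alternatives. The lincRNA starts 201 bases downstream of FCAR, the Fc receptor for immunoglobulin A, on the same strand. FCAR had 82.9, 86.5 and 77.0 CPM in M2 MCHP and 95.5, 98.1 and 95.3 CPM in M2 DMSO, and was also called lower (-0.23 ± 0.06, adjusted p = 0.043). Whether its reads run on into the lincRNA was not tested.

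AL513283.1, a clone-named lincRNA on chromosome 1 (219409523 to 219459369, minus strand), had 7.30, 6.96 and 6.16 CPM in M2 MCHP, against 12.5, 10.2 and 9.35 CPM in M2 DMSO (-0.65 ± 0.15, adjusted p = 0.017). MIR34AHG (chromosome 1, 9148011 to 9198906, minus strand) had 6.78, 7.02 and 5.34 CPM in M2 MCHP, against 11.8, 8.36 and 8.66 CPM in M2 DMSO (-0.58 ± 0.16, adjusted p = 0.041). Neither overlapped between groups, but MIR34AHG kept its call under 8 of 20 alternatives and was at -0.41, not called, without M2 DMSO replicate 1. CYTOR, named as a cytoskeleton regulator (chromosome 2, 87454781 to 87636740, plus strand), had 22.9, 21.2 and 19.6 CPM in M2 MCHP, against 16.9, 16.8 and 17.3 CPM in M2 DMSO (0.32 ± 0.09, adjusted p = 0.039). It was called under 6 of 20 alternatives, while AL513283.1 was called under 18. MIR4435-2HG, the near-identical copy of CYTOR, had 13.7, 14.3 and 15.2 CPM in M2 MCHP and 14.7, 16.7 and 14.5 CPM in M2 DMSO, with overlapping groups.

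**Figure D4:**
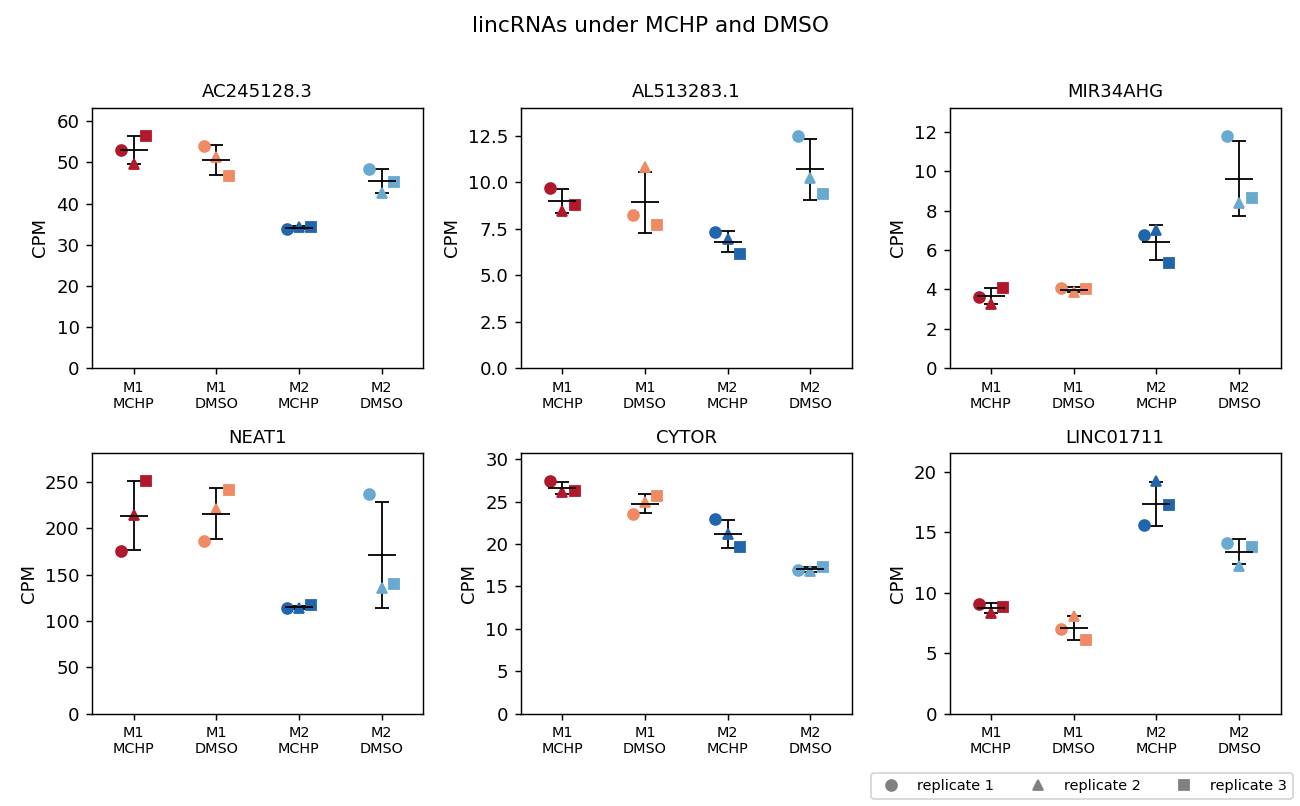
TMM-scaled CPM on a linear axis for 6 lincRNAs in the 4 groups, with 1 symbol per replicate, the mean as a horizontal bar and the SD as whiskers (n = 3). In M2, AC245128.3, AL513283.1, MIR34AHG and NEAT1 are lower and CYTOR and LINC01711 higher in every MCHP library than in any DMSO library, and M2 DMSO replicate 1 is the highest point of NEAT1, at 237 CPM, among the M2 libraries.

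Of the gene lists, MIR34AHG was the only gene called with MCHP in M2 among 15 tested microRNA hosts and 7 tested p53 genes. CYTOR was the only one among 23 tested genes of the snoRNA host list. None was called of 16 tested inflammation genes or 5 tested nuclear RNAs, where 5.11% of all genes tested were called. Several other lincRNAs lay near the threshold in M2. NEAT1 had 114, 114 and 117 CPM in M2 MCHP, against 237, 136 and 140 CPM in M2 DMSO (-0.57 ± 0.16, adjusted p = 0.050, just above the threshold), and was at -0.27, not called, without M2 DMSO replicate 1. MIR222HG was at -0.52 ± 0.18 (adjusted p = 0.10) and at -0.20 without that library. SNHG4 (-0.31 ± 0.09, adjusted p = 0.059) and LINC01160 (-0.30 ± 0.09, adjusted p = 0.075) were not called either, and were at -0.20 and -0.32 without it, the second of them called there. LINC01711 had 15.6, 19.2 and 17.2 CPM in M2 MCHP, against 14.1, 12.2 and 13.8 CPM in M2 DMSO (0.38 ± 0.12, adjusted p = 0.071), and was called higher, at 0.42, without that library. NORAD (0.13 ± 0.06) and MALAT1 (0.09 ± 0.10) were not called, with overlapping groups; without that library they were called higher with MCHP, at 0.21 and 0.25.

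In M1 cells, none of the 100 was called between MCHP and DMSO by edgeR, where 0.0852% of all genes were called, 0.0721% higher and 0.0131% lower. An unadjusted p under 0.05 was found for 3, and for 817 of the 15252 genes tested, and DESeq2 and limma-voom also called none of the 100. The median log2 fold change was 0.01. The groups did not overlap for 14, 5 higher and 9 lower, against 15.9% of all genes, 8.35% higher and 7.58% lower. The smallest p belonged to AC125603.2, with 6.45, 7.19 and 7.41 CPM in M1 MCHP, against 9.94, 10.6 and 10.1 CPM in M1 DMSO (-0.54 ± 0.14, adjusted p = 0.27). Its MCHP libraries all lay below its DMSO libraries, and it was called when the 6 M1 libraries were fitted by themselves and when M2 DMSO replicate 1 was left out. LINC01010 (-0.41 ± 0.16, adjusted p = 0.77) and LINC01711 (0.31 ± 0.13, adjusted p = 0.88) were the other 2. LINC01711 had 9.08, 8.28 and 8.79 CPM in M1 MCHP and 7, 8.09 and 6.11 CPM in M1 DMSO.

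The difference between the MCHP responses, M1 minus M2, was called for none of the 100 by edgeR, where 0.164% of all genes were called. An unadjusted p under 0.05 was found for 12 of the 100, and for 1349 of the 15252 genes tested. DESeq2 called 1 and limma-voom none. The largest value for a gene called in M2 was 0.66 ± 0.21 for AL513283.1 (adjusted p = 0.34), and AC245128.3 was at 0.48 ± 0.11 (adjusted p = 0.11, 95% interval 0.25 to 0.71). In M1, AC245128.3 had 53, 49.5 and 56.5 CPM with MCHP and 54.0, 51.2 and 46.7 CPM with DMSO, and these groups overlapped. Without M2 DMSO replicate 1, the difference was called for 4 of the 100: AC133919.2 (0.87), LINC01160 (0.53) and AC245128.3 (0.43) upward and MALAT1 (-0.35) downward, against 2.46% of all genes.

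Nearest protein-coding genes were followed in the same fit. Of the 100, 81 had a tested nearest neighbour, and between M1 and M2 in DMSO both were called in 31 pairs, 24 in the same direction and 7 in opposite directions. In this contrast 42.5% of all genes tested were called, and joint calls in other pairs of genes were not counted. Over the 81 pairs the log2 fold changes had a Pearson r of 0.62 and a Spearman rho of 0.50, a description over genes that share all libraries. For the 18 overlapping pairs r was 0.83 and rho 0.80, for the 23 pairs within 5000 bases r was 0.51 and rho 0.50, and for the 40 farther pairs r was 0.65 and rho 0.40. With MCHP against DMSO in M2, r was 0.12 and rho 0.17 over the 81 pairs. Both genes were called in 1 pair, AC245128.3 with FCAR, where 5.11% of all genes tested were called. Between M1 and M2 with MCHP, where 44.6% of all genes tested were called, both were called in 32 pairs, 27 in the same direction. Overlapping pairs may share reads.

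FAM225A and SLC31A2, a copper transporter gene 31014 bases away, were both higher in M1 (2.31 ± 0.29 for SLC31A2). SNHG15 and MYO1G, which encodes a myosin of blood cells and lies 3925 bases away, also shared their direction, at 0.79 and 2.84 ± 0.09. LINC01160 and RAP1A, a small GTPase gene, overlap and were both lower in M1, RAP1A by -1.10 ± 0.08 with 157, 153 and 154 CPM in M1 DMSO against 387, 301 and 303 CPM in M2 DMSO. By contrast MIR34AHG was lower and GPR157, 18841 bases away, higher (1.00 ± 0.10), with 51.0, 50.5 and 51.0 CPM in M1 DMSO against 20.7, 28.3 and 26.9 CPM in M2 DMSO. LINC02458 (-1.10 ± 0.11) and AC024909.1 (-1.12 ± 0.26) were lower in M1, while DUSP6, a phosphatase that acts on ERK kinases and the nearest protein-coding gene of both, was higher (0.42 ± 0.06). MIR29B2CHG lies 1876 bases from CD34, which did not pass the filter on low counts.

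**Figure D5:**
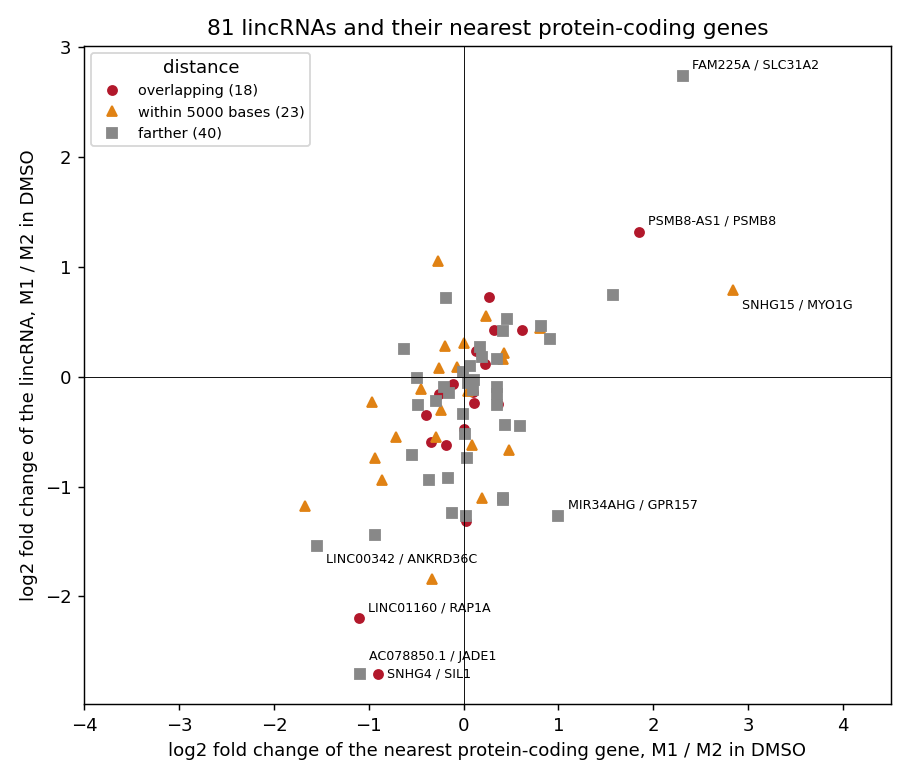
Log2 fold change of M1 over M2 in DMSO for 81 lincRNAs (vertical) and their nearest protein-coding genes (horizontal), with symbols by distance between the gene bodies. FAM225A, at 2.74 with a neighbour at 2.31, lies in the upper right, and MIR34AHG, at -1.27 with a neighbour at 1.00, in the lower right.

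Of the 17 lincRNAs that start within 1000 bases of a protein-coding start on the opposite strand, 5 were called together with that gene between M1 and M2 in DMSO. In this contrast 42.5% of all genes tested were called, and joint calls in other pairs of genes were not counted. HRAT92 with the growth factor gene PDGFA, NUP50-DT with the nuclear pore gene NUP50, and FLJ42351 with the phosphate transporter gene SLC20A1 shared their direction. ZNF674-AS1 (-0.67) with ZNF674 (0.48) and AC060780.1 (-0.48) with NBR1 (0.28), an autophagy receptor gene, did not. HRAT92 (0.29) and AC060780.1 (-0.33) were not called without M2 DMSO replicate 1. Between M1 and M2 with MCHP, where 44.6% of all genes tested were called, both were called in 2 pairs, each in the same direction.

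Among the steadiest within groups, some differed between M1 and M2 and some did not. EBLN3P had 49.8, 51.1 and 45.8 CPM in M1 MCHP, 46.5, 45.8 and 45.2 CPM in M1 DMSO, 53.7, 47.1 and 54.7 CPM in M2 MCHP and 50.8, 47.0 and 48.2 CPM in M2 DMSO. It was not called in any of the 5 contrasts, and the 95% interval of its log2 fold change of M1 over M2 in DMSO ran from -0.24 to 0.07. HCG11 was about as steady and yet lower in M1, with 43.3, 47.1 and 43.7 CPM in M1 DMSO, against 66.7, 57.5 and 58.0 CPM in M2 DMSO (-0.44 ± 0.07, adjusted p = 6.8e-05). LINC02244, the most abundant per length, was lower in M1 as well, with 50.1, 55.6 and 52.8 CPM in M1 DMSO, against 112, 73.8 and 78.9 CPM in M2 DMSO (-0.74 ± 0.12, adjusted p = 4.3e-05).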

How the data were processed

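RNA from 12 libraries was selected with poly-T beads and copied to cDNA with random primers, per the labels' protocols. The authors deposited raw read counts per gene. Per the submitters' processing notes, the tools included featureCounts 1.5.0-p3, HISAT2 2.0.5, DESeq2 1.20.0, fastp and StringTie 1.3.3b, with the build hg38, and the strand setting is not given in the sources used here. Libraries held 14352202 to 16871233 counts, and tested genes held at least 99.8% of them.

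From the deposited counts, all genes were fitted together in R 4.3.3 with edgeR 4.0.16: filterByExpr over the 4 groups, TMM factors, a quasi-likelihood fit with 8 residual degrees of freedom and two-sided F-tests. P-values were adjusted by Benjamini and Hochberg over the 15252 genes tested, with a threshold of 0.05. CPM values were scaled with TMM factors, and TPM used the exon lengths of the table. Errors of log2 fold changes are standard errors. Of the 5 contrasts, 2 compared MCHP with DMSO, 1 was their difference, and 2 compared M1 with M2. The edgeR fit was tested on simulated counts with changes placed in the M2 MCHP group, read in the contrast of MCHP with DMSO in M2. The other contrasts and steps were not simulated. Figures used Python 3.11.15 and matplotlib 3.10.9.

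The lincRNAs and the gene lists were chosen with earlier results of these data known. The text names the 10 called lincRNAs with the largest change in each direction whose groups did not overlap, the 10 with the most counts, those on the gene lists, those at the edge of the count rule, and nearest protein-coding genes. Other features named were chosen after their values were seen. Alternatives were other scalings, no filter, lincRNA and protein-coding genes only, the compared libraries only, a replicate block, limma-voom (limma 3.58.1), DESeq2 1.42.0 and leaving out each library. A further promoter motif is not reported here.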

Additional observations from a re-analysis of the deposited data

How the results depend on the processing

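No called lincRNA changed direction under any of the alternatives run. Of the 56 called between M1 and M2 in DMSO, 48 stayed called under all 20 alternatives, and of the 61 with MCHP, 51. Their counts were 51 to 61 in DMSO and 53 to 63 with MCHP when each library was left out in turn. The 4 calls of MCHP in M2 held less well: 7 were called with library size alone, 9 without the filter on low counts, 7 with DESeq2 and 1 with the compared libraries only, and 2 to 11 when each library was left out. In M1, 1 was called with the compared libraries only, and 0 to 1 when each library was left out. The difference of responses was called for 3 without the filter, for 1 with DESeq2 and for 0 to 4 when each library was left out, 4 being without M2 DMSO replicate 1. The cause of these shifts was not tested. Among uncalled values, NEAT1 with MCHP in M1 was at -0.02, ran from -0.15 (without M1 MCHP replicate 3) to 0.11 when each library was left out, and was at 0.11 without M1 MCHP replicate 1 and 0.07 without M1 DMSO replicate 3, and MALAT1 between M1 and M2 in DMSO was at 0.10, and at -0.04 with library size alone. Over all genes tested, libraries with the same replicate number did not deviate together (r of -0.05 to 0.04). Noise in single genes lowers such an r, so it cannot tell whether these libraries shared a culture. With the replicate block, 3 were called for MCHP in M2, 0 in M1, 0 for the difference, 56 for M1 against M2 in DMSO and 61 with MCHP. At this depth 3 counts correspond to 0.178 to 0.209 CPM, below every value of the 100 lincRNAs printed.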
